A study of Homo sapiens with 34 samples.

Results

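The comparison set the 8 RNA sequencing libraries of cells that spent day 2 in lateral mesoderm (LM) medium against the 8 libraries of cells that spent day 2 in definitive endoderm (DE(b)) medium, 16 of the 34 libraries of the series. Each medium followed 4 different day 1 treatments, so that LM and DE(b) could be compared 4 times from a shared starting population. Genes were asked to be called in the same direction every time, at an adjusted p under 0.05. Of 17268 genes with enough counts, 1063 were: 488 higher and 575 lower in LM after every day 1 treatment. Below, a change after every day 1 treatment means a call in each of the 4 comparisons. With the mean called and 4 equal signs in place of 4 calls, 2702 genes were higher and 2752 lower.

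The cells were wild-type ESI017, an established human embryonic stem cell line, and no group carried a genetic change. On day 1 all groups received CHIR, the Wnt pathway activator CHIR99021, for 24 h. DE(a) cells received 100 ng/ml activin A and 2 µM CHIR. For anterior primitive streak (APS) the medium held 4 µM CHIR with bFGF at 20 ng/ml and activin A at 30 ng/ml. Mid primitive streak (MPS) medium kept that activin A and bFGF, raised CHIR to 6 µM and added BMP4 at 40 ng/ml, and posterior primitive streak (PPS) medium was the same as MPS medium except that it lacked activin A. LM medium held 30 ng/ml BMP4, 1 µM of the activin and nodal receptor inhibitor A8301, and 4 µM of IWP2, which blocks Wnt secretion. DE(b) medium held 100 ng/ml activin A and 250 nM of the BMP receptor inhibitor LDN193189. Paraxial mesoderm (PM) medium, used below only for reference levels, is listed with 1 µM A8301, 20 ng/ml bFGF and 250 nM LDN193189. Elsewhere the paper also describes CHIR in it. The cells were collected at 48 h in 2 replicates per condition. LM and DE(b) media differ in all 5 of their components at once, and the parts of these components cannot be told apart here. All values come from 1 cell line. In bulk RNA, fewer cells of a type and less RNA per cell cannot be told apart either.

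BMP and activin or nodal belong to the same family of secreted factors but act through different receptors and SMAD proteins. BMP ligands lead to phosphorylation of SMAD1, SMAD5 and SMAD9, and activin and nodal to that of SMAD2 and SMAD3, which bind DNA with SMAD4 and partners such as FOXH1. In the embryo BMP is known for its role in lateral, cardiac and extra-embryonic mesoderm, and high nodal for its role in definitive endoderm.

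Total estimated counts ranged from 15705663 to 21076327 in the LM libraries and from 15522780 to 20808544 in the DE(b) libraries, with medians of 18838508 and 17668266. Levels are given as CPM, the usual scaling of a gene's estimated count by its library total without further normalization, in the order replicate 1 and replicate 2. They are not scaled for gene length, so levels are compared only within a gene. A level of 0 allows at most 3 counts, which is 0.142 to 0.193 CPM in these libraries and covers counting error only. Where both replicates of a condition held at most 3 counts, the fold change is a lower bound against 3 counts per library. Log2 fold changes are LM minus DE(b). Each ± is a standard error (SE) worked back from the fold change and the F statistic of the edgeR test. Called genes are those with an adjusted p below 0.05.

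Summed markers of each labelled fate were higher in its medium, although single markers such as GATA4, FOXA2 and CXCR4, described further on, overlapped between the media. The summed level of 6 lateral mesoderm markers (HAND1, HAND2, FOXF1, GATA4, TBX20, TBX3) was 750.4 to 2967 CPM in LM and 120.5 to 288 CPM in DE(b). Within these sums HAND1 alone made up 388 to 2127 CPM in LM, and GATA4 107 to 221 CPM in DE(b). The summed level of 6 endoderm markers (SOX17, FOXA2, CXCR4, CER1, HHEX, GSC) was 0.354 to 141 CPM in LM and 3482 to 6503 CPM in DE(b). In DE(b), CER1 alone made up 3329 to 6006 CPM of the endoderm sum. DE(b) names the medium and not a fate reached by all cells. By immunostaining, the paper reports very few cells with both SOX17 and FOXA2 when MPS or PPS cells were given this medium. LM likewise names a medium. In the MPS-LM protocol the paper describes a subpopulation of amnion-like cells that stained for HAND1, GATA3 and E-CAD. Of 5 amnion markers (TFAP2A, TFAP2B, GATA3, VTCN1, GABRP), 2 to 5 reached 1 CPM in LM libraries and 0 to 3 in DE(b) libraries, with sums of 62.9 to 368 and 1.75 to 16.02 CPM. Paraxial mesoderm markers summed to 2.71 to 10.6 CPM in LM and 3.75 to 82.4 CPM in DE(b), and MEOX1 stayed under 1 CPM in all 16 libraries. Of 6 blood and endothelial markers, TAL1 stayed under 1 CPM in all 16 libraries, CDH5 in every LM library and PECAM1 in every DE(b) library, and the sums of 290.4 to 1511 CPM in LM and 56.3 to 109.5 CPM in DE(b) include KDR, which early mesoderm also expresses. The 4 pluripotency markers summed to 128 to 418 CPM in LM and 139.7 to 622 CPM in DE(b). The part that cells of other types had in the results below was not tested.

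Over the mean of the 4 comparisons, 3542 genes were higher and 3596 lower in LM, 41.3% of the genes tested (20.5% higher, 20.8% lower). After DE(a), 1465 genes were higher (8.48%) and 1424 lower (8.25%). After APS, 2205 were higher (12.8%) and 2319 lower (13.4%). After MPS, 1706 were higher (9.88%) and 1989 lower (11.5%), and after PPS 1717 were higher (9.94%) and 1780 lower (10.3%). The 1063 genes called in 1 direction every time make up 6.16% of those tested, against 26.2% called in either direction after APS, 21.4% after MPS, 20.3% after PPS and 16.7% after DE(a). Higher genes make up 2.83% of those tested and lower genes 3.33%. Their median mean log2 fold changes were 2.38 and -2.10, beside 0.01 over all genes tested. As these genes were chosen by the same values, the sizes and the separation given for them follow in part from the rule. Of the 488, 353 exceeded 2-fold in all 4 comparisons, and of the 575, 388 did. The 8 LM libraries all lay above the 8 DE(b) libraries for 387 of the 488 and all lay below them for 424 of the 575, where 4.15% and 4.19% of all genes did so. The size of the difference depended on the day 1 treatment (interaction, adjusted p under 0.05) for 2140 genes, 12.4% of those tested, and for 167 of the 488 and 205 of the 575. The shares over all genes given in this paragraph are the background for the list counts below. With 1 library left out, some counts fell by over 1.5 times: the DE(a) count of 2889 became 1851 without DE(a)-LM replicate 2 and 1852 without DE(a)-DE(b) replicate 2. The APS count of 4524 became 2999 without APS-DE(b) replicate 2, and the PPS count of 3497 became 2325 without PPS-LM replicate 2 and 2251 without PPS-DE(b) replicate 2.

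**Figure D1:**
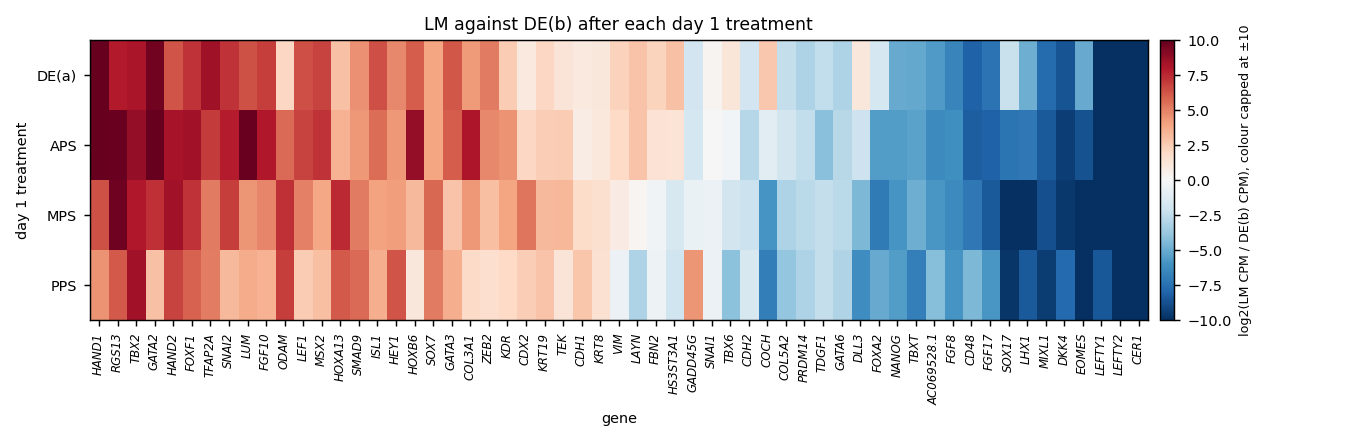
Log2 ratio of the mean LM CPM to the mean DE(b) CPM (colour, capped at ±10, means under 0.2 CPM set to 0.2) after each day 1 treatment (rows) for the 57 genes named by rule (columns, ordered by their mean). Red genes on the left are higher in LM, blue genes on the right lower, and colours mix in columns such as COCH and GADD45G, which were called in opposite directions, and VIM and SNAI1, which were not.

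Transcription factors of lateral and cardiac mesoderm were higher in LM. Of 17 such factors tested, 14 were higher over the mean of the comparisons and 0 lower, and 10 were higher after every day 1 treatment: HAND1, HAND2, FOXF1, TBX2, TBX3, TBX20, NKX2-5, GATA5, ISL1 and SNAI2. The median log2 fold change of the list was 6.26, or 4.90 with the genes near 0 held at their bounds. HAND1, a basic helix-loop-helix factor of heart and extra-embryonic mesoderm (chr5:154474972-154478227, minus strand), stood at 388 and 818 CPM in DE(a)-LM, 806 and 1528 in APS-LM, 1789.5 and 2127 in MPS-LM and 1892 and 1826 in PPS-LM. The DE(b) values were 0 and 0.0583 CPM in DE(a)-DE(b), 0.276 and 0.0987 in APS-DE(b), followed by 27.8 and 19.9 in MPS-DE(b) and 100.0 and 69.3 in PPS-DE(b). The groups did not overlap, and the difference shrank from at least 3745-fold after DE(a) to 22.1-fold after PPS, where HAND1 was also present in DE(b) (interaction adjusted p = 2.14e-06).

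TBX2, a T-box repressor active in the outflow tract and chamber boundaries of the heart, was at 0 in 6 of 8 DE(b) libraries and at most 0.303 CPM in the other two. The LM values were 49.6 and 65.7 CPM in DE(a)-LM, 83.8 and 89.9 in APS-LM, 37.7 and 63.0 in MPS-LM and 69.2 and 68.0 in PPS-LM, which was at least 269-fold higher for MPS, 358-fold for DE(a) and 554-fold for APS, and 354-fold higher for PPS. HAND2, the paralogue of HAND1, ranged from 8.26 to 158 CPM in LM and reached at most 1.30 CPM in DE(b). FOXF1, a forkhead factor of lateral and splanchnic mesoderm, ranged from 20.6 to 109.7 CPM in LM and reached at most 1.69 CPM in DE(b). For both genes every LM library lay above every DE(b) library, and the lower values of LM came from DE(a)-LM, with 8.26 and 22.5 CPM of HAND2 and 20.6 and 40.4 CPM of FOXF1. TBX20, another cardiac T-box factor, rose by 3.19 ± 0.26 (adjusted p = 8.51e-10). GATA5 and NKX2-5, factors of heart progenitors, ranged from 24.0 to 72.9 CPM and 8.03 to 39.3 CPM in LM and reached at most 0.247 and 0.165 CPM in DE(b).

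ISL1, a LIM homeodomain factor of second heart field progenitors and also of amnion, stood at 42.6 and 59.4 CPM in DE(a)-LM, 28.1 and 26.5 in APS-LM, 10.8 and 27.5 in MPS-LM and 75.1 and 94.8 in PPS-LM. DE(b) libraries held 0.542 and 0.639 CPM in DE(a)-DE(b), 0.171 and 0.987 in APS-DE(b), followed by 0.904 and 1.42 in MPS-DE(b) and 8.24 and 5.69 in PPS-DE(b). The highest values of both media were those after PPS, and the mean log2 fold change was 4.90 ± 0.33 (adjusted p = 1.48e-11, interaction adjusted p = 0.11). The 3 listed factors that were not called were GATA4, IRX3 and TWIST1. GATA4, which endoderm shares with cardiac mesoderm, ranged from 80.7 to 181 CPM in LM and 107 to 221 CPM in DE(b), with a mean log2 fold change of -0.07 ± 0.16 (adjusted p = 0.785).

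**Figure D2:**
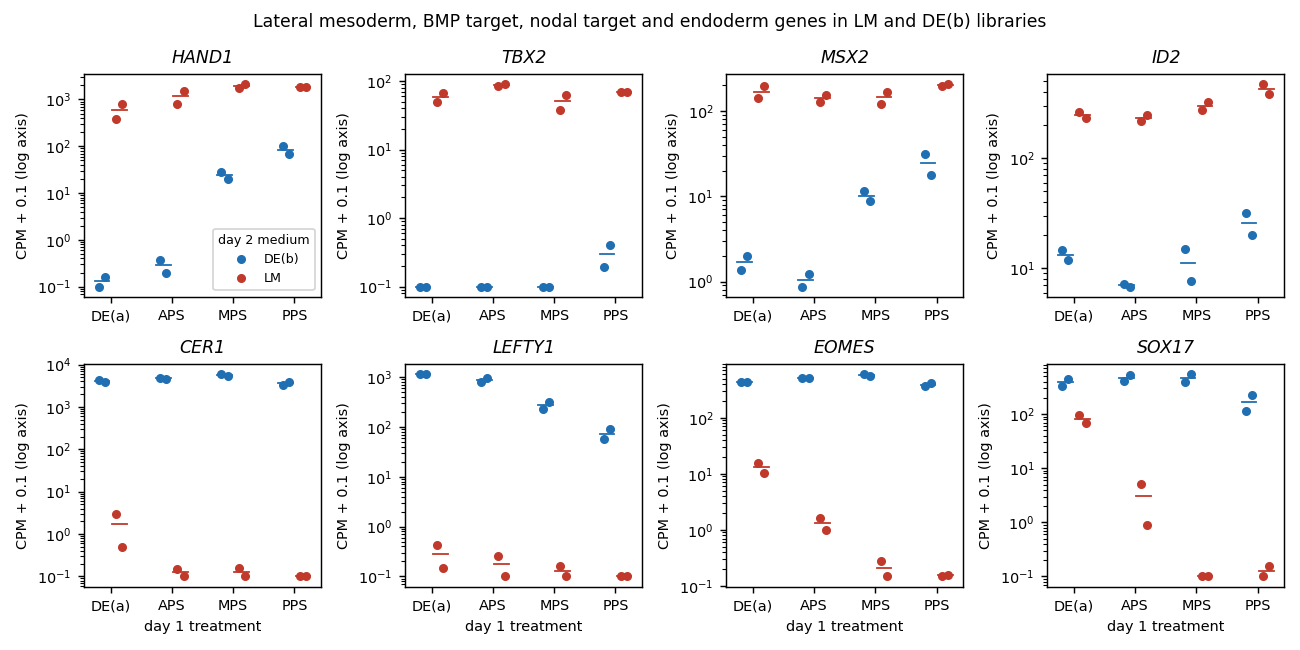
CPM + 0.1 (log axis) of 8 genes in the single LM (red) and DE(b) (blue) libraries by day 1 treatment, with a line at the mean of the 2 replicates. HAND1, TBX2, MSX2 and ID2 were called higher in LM after each day 1 treatment and CER1, LEFTY1 and EOMES lower, while SOX17 was not called after DE(a), with 94.8 and 69.6 CPM in DE(a)-LM.

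Direct targets of BMP signalling rose as a group. Of 13 BMP target genes tested, 12 were higher over the mean of the comparisons and 0 lower, and 9 were higher after every day 1 treatment (ID1, ID2, ID3, ID4, SMAD6, SMAD9, BAMBI, MSX2 and HEY1), with a list median of 3.80 on the log2 scale. All 8 LM libraries lay above all 8 DE(b) libraries for 10 of the 13, beside 4.15% of all genes tested. ID1, ID2, ID3 and ID4 encode dominant negative partners of basic helix-loop-helix factors. ID2 stood at 261 and 231 CPM in DE(a)-LM, 219.5 and 249.6 in APS-LM, 272 and 326 in MPS-LM and 472 and 381 in PPS-LM. Its DE(b) levels were 14.5 and 11.7 CPM in DE(a)-DE(b), 7.11 and 6.73 in APS-DE(b), followed by 14.8 and 7.51 in MPS-DE(b) and 31.9 and 20.1 in PPS-DE(b). The difference was 16.5-fold for PPS, 18.1-fold for DE(a), 27.9-fold for MPS and 33.6-fold for APS, and the interaction was not called (adjusted p = 0.156).

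The homeobox gene MSX2 stood at 142 and 196 CPM in DE(a)-LM, 128 and 156 in APS-LM, 121 and 169 in MPS-LM and 194 and 206 in PPS-LM. The DE(b) values were 1.28 and 1.92 CPM in DE(a)-DE(b), 0.772 and 1.13 in APS-DE(b), followed by 11.5 and 8.66 in MPS-DE(b) and 31.6 and 17.7 in PPS-DE(b). All 4 DE(b) libraries of MPS and PPS lay above the 4 of DE(a) and APS, and the log2 fold change was 6.69 ± 0.41 for DE(a), 7.18 ± 0.43 for APS, 3.91 ± 0.35 for MPS and 3.03 ± 0.33 for PPS (interaction adjusted p = 3.72e-06). ID4 also differed least after PPS, with log2 fold changes of 6.58 ± 0.51 after DE(a) and 1.70 ± 0.40 after PPS (interaction adjusted p = 1.3e-05). SMAD9, a BMP receptor substrate that BMP itself induces, stood at 60.8 and 66.8 CPM in DE(a)-LM, 62.5 and 56.2 in APS-LM, 111 and 173 in MPS-LM and 179.5 and 150.3 in PPS-LM and in DE(b) at 1.92 to 4.22 CPM. Its difference went the other way, from 4.29 ± 0.28 after APS to 5.67 ± 0.29 after PPS (interaction adjusted p = 0.0305).

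Feedback inhibitors of the pathway rose too over the mean, though not all after every day 1 treatment. The inhibitory SMAD7 rose by 0.95 ± 0.10 (adjusted p = 1.95e-08) but was not called after DE(a) (0.36 ± 0.19, adjusted p = 0.229). SMAD6, also an inhibitory SMAD, ranged from 229.7 to 706 CPM in LM and 52.9 to 89.3 CPM in DE(b), with a mean log2 fold change of 2.68 ± 0.11 (adjusted p = 1.88e-15). BAMBI, a pseudoreceptor that dampens signalling, ranged from 454 to 863 CPM in LM and 16.7 to 117 CPM in DE(b), a mean log2 fold change of 4.15 ± 0.15 (adjusted p = 2.9e-16). HEY1, a hairy-related repressor that Notch signalling also induces, ranged from 8.10 to 162 CPM in LM, with 162 and 122 CPM in PPS-LM, and from 0.174 to 1.97 CPM in DE(b). ATOH8 was the 1 member not called over the mean (0.34, adjusted p = 0.102), and its difference depended on the day 1 treatment (interaction adjusted p = 0.00276).

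Targets and components of nodal and activin signalling fell as a group. All 12 tested were lower over the mean of the comparisons and 11 were lower after every day 1 treatment, the exception being FOXH1, a SMAD partner, at -0.64 ± 0.17 (adjusted p = 0.00429). The list median was -8.09 on the log2 scale. CER1, a secreted antagonist of nodal, BMP and Wnt (chr9:14719724-14722733, minus strand), stood at 4296 and 3886 CPM in DE(a)-DE(b), 4924 and 4569 in APS-DE(b), followed by 6006 and 5343 in MPS-DE(b) and 3329 and 3856 in PPS-DE(b). LM libraries held 2.94 and 0.382 CPM in DE(a)-LM, 0.0516 and 0 in APS-LM, 0.0582 and 0 in MPS-LM and 0 and 0 in PPS-LM. It was 2747-fold lower in LM after DE(a), and at least 22348-fold lower for PPS, 30072-fold for APS and 35819.8-fold for MPS. At 24 h, before the second medium, CER1 had a mean of 1558 CPM after DE(a) and 0.173 CPM after PPS. The 24 h level after DE(a) thus lay between those of the LM and DE(b) libraries, and after PPS CER1 was near 0 both at 24 h and in LM.

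LEFTY1, a secreted nodal inhibitor, stood at 1137 and 1152 CPM in DE(a)-DE(b), 812 and 952 in APS-DE(b), followed by 226 and 314 in MPS-DE(b) and 55.8 and 88.9 in PPS-DE(b). Its LM values ranged from 0 to 0.318 CPM. The DE(b) level was lower from one day 1 treatment to the next in that order. LEFTY1 was 6894-fold lower in LM after DE(a) and at least 450.0-fold lower after PPS (interaction adjusted p = 0.951). LEFTY2 ranged from 371 to 1400.2 CPM in DE(b) and 0 to 0.766 CPM in LM. LEFTY1 and LEFTY2 are close paralogues, and the split of reads between them is uncertain. NODAL, the ligand itself, ranged from 114 to 269.9 CPM in DE(b) and 0.103 to 0.759 CPM in LM (mean log2 fold change -9.19 with PPS-LM held at its bound, adjusted p = 1.55e-17). PMEPA1, a feedback inhibitor of SMAD2 and SMAD3 signalling, had the smallest adjusted p of the list (8.58e-19) at -4.77 ± 0.12.

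MIXL1, a homeobox gene of nascent mesoderm and endoderm (chr1:226223618-226227060, plus strand), stood at 559 and 565 CPM in DE(a)-DE(b), 571 and 611 in APS-DE(b), followed by 839.9 and 727 in MPS-DE(b) and 1129.8 and 1241 in PPS-DE(b). In LM it ranged from 0.814 to 2.84 CPM, a mean log2 fold change of -8.56 ± 0.28 (adjusted p = 6.08e-17, interaction adjusted p = 0.336). TDGF1, the nodal co-receptor, was 411 to 814 CPM in DE(b) and 31.4 to 168 CPM in LM, a mean log2 fold change of -2.84 ± 0.20 (adjusted p = 3.33e-11). SKIL, a SMAD corepressor induced by activin, was at -1.05 ± 0.10 (adjusted p = 3.09e-09). GSC, a homeobox gene of the organizer, ranged from 23.1 to 108 CPM in DE(b) and 0.0547 to 1.40 CPM in LM.

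Sequences upstream of genes from the lateral mesoderm, BMP and nodal lists are shown. The BMP and nodal groups moved in opposite directions and their pathways act through different DNA-bound partners. The windows are those RefSeq gives for GRCh38.p14, from 250 bases before the gene start, on the strand of the gene, and 46 bases next to the MIXL1 start that GENCODE places inside the gene were left out. The 3 motifs searched on both strands were CAGAC, the SMAD box, GGCGCC, a GC-rich SMAD site, and AATNNACA, a FOXH1-type site. Capitals mark the matches. HAND1, of the lateral mesoderm list and not the BMP list, and MSX2, a BMP target, are examples of genes that rose. CER1 and MIXL1, of the nodal list, are examples of genes that fell. All were chosen among genes with known values and are not representative of their lists.
HAND1 (chr5:154478228-154478477, minus strand): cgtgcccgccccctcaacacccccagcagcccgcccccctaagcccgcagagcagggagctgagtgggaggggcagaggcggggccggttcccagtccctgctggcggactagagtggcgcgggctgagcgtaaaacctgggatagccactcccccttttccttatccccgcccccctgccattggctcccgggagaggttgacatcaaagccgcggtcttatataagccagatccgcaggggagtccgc
MSX2 (chr5:174724332-174724581, plus strand): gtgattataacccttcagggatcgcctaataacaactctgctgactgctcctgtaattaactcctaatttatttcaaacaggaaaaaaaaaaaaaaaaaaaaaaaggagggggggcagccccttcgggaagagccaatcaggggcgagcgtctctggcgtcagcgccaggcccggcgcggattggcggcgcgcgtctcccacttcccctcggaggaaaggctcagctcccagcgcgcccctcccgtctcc
CER1 (chr9:14722734-14722983, minus strand): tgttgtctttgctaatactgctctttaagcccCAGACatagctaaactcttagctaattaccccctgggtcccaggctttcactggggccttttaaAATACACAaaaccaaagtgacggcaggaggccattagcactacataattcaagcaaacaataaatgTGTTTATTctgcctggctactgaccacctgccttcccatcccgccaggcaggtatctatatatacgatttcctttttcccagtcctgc
MIXL1 (chr1:226223414-226223617, plus strand): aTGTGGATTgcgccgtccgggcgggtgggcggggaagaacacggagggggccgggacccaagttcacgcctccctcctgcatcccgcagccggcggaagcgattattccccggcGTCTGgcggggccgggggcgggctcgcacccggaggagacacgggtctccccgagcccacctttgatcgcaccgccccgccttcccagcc
Neither HAND1 nor MSX2 held a match in this window. CER1 held a SMAD box that begins 218 bases before the start and FOXH1-type matches that begin 154 and 88 bases before it. MIXL1 held a SMAD box that begins 136 bases and a FOXH1-type match that begins 249 bases before the start. Over the lists, 7 of 12 nodal genes had a window, of which 5 held the SMAD box, 2 held the GC-rich site and CER1 and MIXL1 were the 2 with a FOXH1-type match, while 12 of 13 BMP targets had one, of which 4 held the SMAD box (ID3, ID4, SMAD7 and BAMBI), 2 the GC-rich site and 0 the FOXH1-type site. The SMAD box was found in 37.8% of 27305 promoters of 250 bases, the GC-rich site in 16.1% and the FOXH1-type site in 9.9%. Of the 488 genes higher in LM, 358 had a window, of which 41.1% held the SMAD box, 27.9% the GC-rich site and 5.31% the FOXH1-type site. Of the 575 lower genes, 413 had a window, of which 37% held the SMAD box, 24.5% the GC-rich site and 7.51% the FOXH1-type site. Among all 12277 tested genes with a window these shares were 36.2%, 24.8% and 5.26%. The matches are letters in a window and not evidence of binding.

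Definitive endoderm genes were lower in LM, by an amount that depended on day 1. Of 15 tested, 14 were lower over the mean of the comparisons and 0 higher, 8 were lower after every day 1 treatment (CER1, EOMES, GATA6, GSC, HHEX, LHX1, OTX2 and PRDM1), and the interaction was called for 10. It was called for 12.4% of all genes tested. The list median was -5.47, or -5.29 with conditions near 0 held at their bounds, as 7 of the 15 held at least 1 such condition. By day 1 treatment the median was -3.12 for DE(a), -5.60 for APS, -6.67 for PPS and -7.90 for MPS. These medians by day 1 treatment are fitted values without bounds, and their sizes depend in part on conditions near 0. SOX17, the HMG-box factor of definitive endoderm, stood at 330.4 and 439.6 CPM in DE(a)-DE(b), 401 and 518 in APS-DE(b), followed by 391 and 553 in MPS-DE(b) and 113 and 224 in PPS-DE(b). Its LM levels were 94.8 and 69.6 CPM in DE(a)-LM, 5.06 and 0.806 in APS-LM, 0 and 0 in MPS-LM and 0 and 0.0547 in PPS-LM. Every LM library lay below every DE(b) library, and the log2 fold change of -2.28 ± 0.87 after DE(a) did not pass the test (adjusted p = 0.0814), while SOX17 was at least 2979-fold lower after MPS and 1047-fold after PPS (interaction adjusted p = 0.0018).

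FOXA2, a forkhead factor of endoderm and axial mesoderm, stood at 86.0 and 125 CPM in DE(a)-DE(b), 52.9 and 79.1 in APS-DE(b), followed by 17.1 and 37.8 in MPS-DE(b) and 2.17 and 11.0 in PPS-DE(b). The LM values were 34.6 and 28.8 CPM in DE(a)-LM, 2.28 and 0.483 in APS-LM, 0 and 0.19 in MPS-LM and 0 and 0 in PPS-LM. The groups overlapped, since both DE(a)-LM libraries lay above both PPS-DE(b) libraries and above 1 of the 2 MPS-DE(b) libraries, and the DE(a) comparison was not called (-1.79 ± 0.77, adjusted p = 0.128). EOMES, a T-box factor upstream of both endoderm and mesoderm, stood at 439.8 and 443 CPM in DE(a)-DE(b), 507 and 520.2 in APS-DE(b), followed by 606 and 562 in MPS-DE(b) and 368 and 412 in PPS-DE(b) and at 15.7 and 10.4 CPM in DE(a)-LM, 1.55 and 0.912 in APS-LM, 0.174 and 0.0474 in MPS-LM and 0.0525 and 0.0547 in PPS-LM. The LM values after APS lay below those after DE(a), and those after MPS and PPS were at or under 3 counts, so that these last conditions cannot be ordered (interaction adjusted p = 0.000378). At 24 h the means were 648 CPM for DE(a), 448 for APS, 154 for MPS and 21.6 for PPS.

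GATA6, a zinc finger factor of endoderm and cardiac mesoderm, ranged from 465 to 791 CPM in DE(b) and 51.6 to 115 CPM in LM. Its log2 fold change was -3.12 ± 0.31 for DE(a), -2.79 ± 0.31 for APS, -2.61 ± 0.30 for MPS and -3.03 ± 0.31 for PPS (interaction adjusted p = 0.796). LHX1, a LIM homeodomain factor of anterior endoderm and organizer, ranged from 268 to 666 CPM in DE(b) and stood at 13.4 and 10.8 CPM in DE(a)-LM, 3.46 and 4.19 in APS-LM, 0.465 and 0.617 in MPS-LM and 1.37 and 1.80 in PPS-LM. The chemokine receptor CXCR4 stood at 168 and 154 CPM in DE(a)-DE(b), 105.2 and 125 in APS-DE(b), followed by 18.6 and 29.7 in MPS-DE(b) and 9.25 and 17.5 in PPS-DE(b) and at 5.81 and 3.54 CPM in DE(a)-LM, 0.206 and 0.107 in APS-LM, 0.237 and 3.61 in MPS-LM and 9.21 and 10.3 in PPS-LM. Its difference was -9.47 ± 0.88 after APS and -0.44 ± 0.54 after PPS (adjusted p = 0.642). OTX2, a homeobox gene of anterior tissues, was at -5.47 ± 0.28 over the mean (adjusted p = 1.51e-13), and FOXA1 was the 1 member not called. CER1, EOMES, GSC and LHX1 stand in the nodal list as well.

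**Figure D3:**
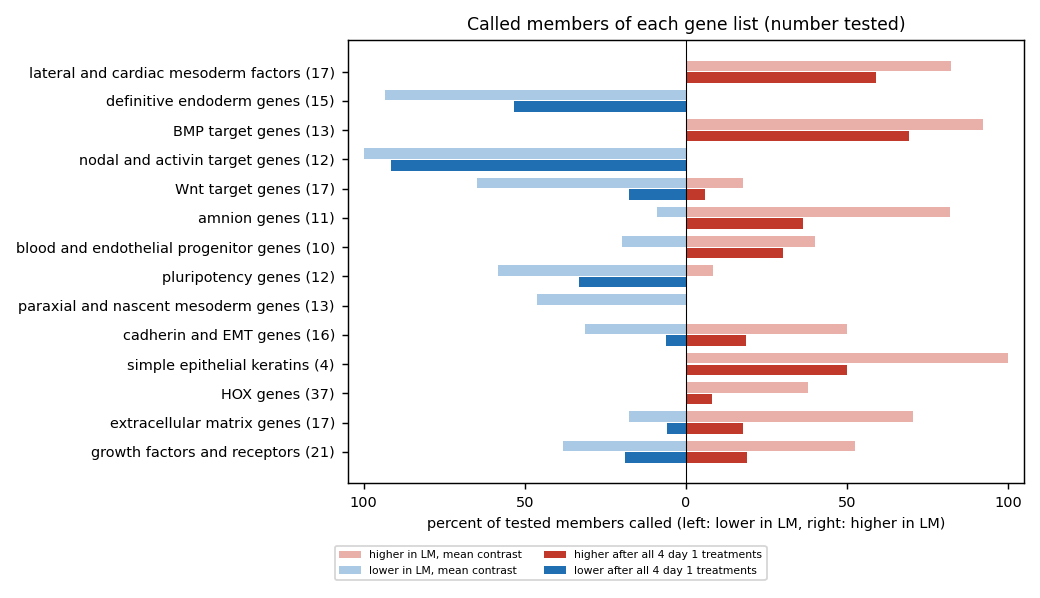
Percent of the tested members of each of 14 gene lists (number tested in brackets) that were called lower in LM (left, blue) or higher in LM (right, red) over the mean of the 4 comparisons (pale) and after all 4 day 1 treatments (dark). Nodal and activin targets lie entirely on the left, BMP targets and lateral mesoderm factors on the right, and paraxial mesoderm genes have no dark bar.

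Over the mean of the comparisons, more Wnt target genes were lower than higher in LM, the medium with IWP2. Of 17 tested, 11 were lower and 3 higher over the mean, 6 were lower and 3 higher after DE(a), 6 and 1 after APS, 9 and 1 after MPS, and 11 and 2 after PPS, and 3 were lower and 1 higher after every day 1 treatment, with a list median of -1.10. Among all genes tested, 20.8% were lower and 20.5% higher over the mean, so the 3 higher are near that share. Without PPS-LM replicate 2 the count of 3 lower became 1, and without the filter on low counts 5 were lower and 2 higher every time. TBXT (brachyury), the T-box factor of primitive streak, stood at 22.2 and 23.8 CPM in DE(a)-DE(b), 16.6 and 21.3 in APS-DE(b), followed by 11.1 and 13.7 in MPS-DE(b) and 108 and 85.6 in PPS-DE(b) and in LM from 0.161 to 1.20 CPM, with a mean log2 fold change of -5.50 ± 0.29 (adjusted p = 1.65e-13). It had stood far higher at 24 h, at means of 279 to 1083 CPM. AXIN2, the feedback inhibitor most used as a readout of the pathway, ranged from 52.6 to 108 CPM in DE(b) and 12.6 to 24.2 CPM in LM, a mean log2 fold change of -2.10 ± 0.16 (adjusted p = 2.23e-10). DKK4, a secreted Wnt inhibitor, was at 0 in all 8 LM libraries and ranged from 30.4 to 173 CPM in DE(b), at least 265-fold lower in LM after PPS and 1030.2-fold after MPS. LEF1, a transcription factor of the pathway that other signals also control, was the 1 listed gene higher in LM after every day 1 treatment. It stood at 68.4 and 154 CPM in DE(a)-LM, 260.1 and 324 in APS-LM, 382 and 327 in MPS-LM and 223 and 212 in PPS-LM and at 1.49 and 1.105 CPM in DE(a)-DE(b), 2.21 and 3.11 in APS-DE(b), followed by 11.9 and 9.19 in MPS-DE(b) and 41.8 and 31.1 in PPS-DE(b), a log2 fold change of 6.76 ± 0.38 after APS and 2.58 ± 0.30 after PPS (interaction adjusted p = 2.08e-06).

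Of 12 pluripotency genes tested, 7 were lower and 1 higher in LM over the mean, 4 were lower after every day 1 treatment (NANOG, PRDM14, L1TD1 and TDGF1), and the list median was -0.45. Among all genes tested, 20.8% were lower and 20.5% higher over the mean and 3.33% lower every time. NANOG, a homeobox factor of the pluripotency network, stood at 104 and 87.1 CPM in DE(a)-DE(b), 33.4 and 21.1 in APS-DE(b), followed by 15.97 and 7.68 in MPS-DE(b) and 10.2 and 8.67 in PPS-DE(b). LM libraries held 3.51 and 2.33 CPM in DE(a)-LM, 0.722 and 0.429 in APS-LM, 0.0582 and 0.0474 in MPS-LM and 0 and 0 in PPS-LM. It was 34.2-fold lower in LM after DE(a) and at least 74.6-fold lower after MPS and 58.8-fold after PPS. PRDM14, a zinc finger repressor of the same network, ranged from 2.51 to 22.4 CPM in DE(b) and 0.315 to 2.79 CPM in LM. POU5F1 (OCT4) was not called (-0.13 ± 0.09, adjusted p = 0.259), with 126 to 385 CPM in LM and 123 to 449 CPM in DE(b). NANOG, TDGF1 and POU5F1 have processed pseudogenes that can share their reads.

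Genes of amnion and of trophoblast-like ectoderm were higher in LM. Of 11 tested, 9 were higher and 1 lower over the mean, and 4 were higher after every day 1 treatment: GATA2, GATA3, ISL1 and TFAP2A, of which ISL1 also stands in the lateral mesoderm list. The lower member was TFAP2C, an AP-2 factor that pluripotent and germ cells also express, at 13.04 to 20.0 CPM in DE(b) and 1.76 to 16.9 CPM in LM (-1.50 ± 0.15, adjusted p = 2.21e-08). GATA3, a zinc finger factor, stood at 129 and 140.1 CPM in DE(a)-LM, 38.7 and 50.9 in APS-LM, 36.2 and 63.1 in MPS-LM and 107 and 136 in PPS-LM. DE(b) libraries held 1.68 and 1.86 CPM in DE(a)-DE(b), 0.827 and 0.543 in APS-DE(b), followed by 7.97 and 5.67 in MPS-DE(b) and 11.5 and 8.49 in PPS-DE(b). Its highest LM values were those after DE(a) and PPS, and the difference ran from 6.20 ± 0.46 after DE(a) to 2.93 ± 0.39 after MPS (interaction adjusted p = 0.000271). TFAP2A, an AP-2 factor of surface ectoderm and amnion, stood at 55.1 and 88.2 CPM in DE(a)-LM, 23.2 and 26.8 in APS-LM, 30.6 and 35.4 in MPS-LM and 113 and 167 in PPS-LM and in DE(b) from 0 to 4.19 CPM (interaction adjusted p = 0.00455). GATA2, which haematopoietic and endothelial progenitors also express, ranged from 119 to 459 CPM in LM and was at 0 in both APS-DE(b) libraries, at least 2255-fold higher in LM there, while it was 7.54-fold higher after PPS (interaction adjusted p = 1.94e-08). Over the list, 9 genes were higher in LM after PPS, 6 after DE(a), 5 after APS and 4 after MPS. GABRP, a GABA receptor subunit, stood in PPS-LM at 31.8 and 51.9 CPM and in the other 6 LM libraries at 0.664 to 5.40 CPM (interaction adjusted p = 0.000156). VTCN1, an immune checkpoint ligand used as an amnion marker, stood at 5.77 and 9.74 CPM in PPS-LM.

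Genes of blood and endothelial progenitors were mixed. Of 10 tested, 4 were higher and 2 lower over the mean, and 3 were higher after every day 1 treatment (KDR, TEK and SOX7), a count that became 1 without DE(a)-LM replicate 2. Among all genes tested, 20.5% were higher and 20.8% lower over the mean and 2.83% higher every time. The 2 lower are thus near the share over all genes. KDR, the VEGF receptor of early mesoderm and endothelium, stood at 329 and 902 CPM in DE(a)-LM, 974 and 1506 in APS-LM, 597 and 1064 in MPS-LM and 288 and 374 in PPS-LM. Its DE(b) levels were 107 and 106 CPM in DE(a)-DE(b), 51.9 and 57.1 in APS-DE(b), followed by 50.2 and 57.9 in MPS-DE(b) and 76.6 and 87.9 in PPS-DE(b). The groups did not overlap and the mean log2 fold change was 3.26 ± 0.23 (adjusted p = 3.76e-11, interaction adjusted p = 0.0128). TEK, the angiopoietin receptor, ranged from 19.8 to 131 CPM in LM and 7.79 to 16.6 CPM in DE(b), with the largest difference after MPS (3.37 ± 0.30). SOX7 ranged from 1.098 to 41.7 CPM in LM and reached at most 1.33 CPM in DE(b). CDH5 and SOX18, genes of endothelial cells, were called lower over the mean, at -2.05 and -2.52 on the log2 scale with conditions near 0 held at their bounds. CDH5 stood in DE(b) from 0.192 to 2.88 CPM.

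Cadherins and genes of epithelial-mesenchymal transition (EMT) showed no shared direction. Of 16 tested, 8 were higher and 5 lower over the mean, 3 were higher (CDH1, SNAI2 and ZEB2) and 1 lower (CDH2) after every day 1 treatment, and the interaction was called for 13. Among all genes tested, 20.5% were higher and 20.8% lower over the mean, and the interaction was called for 12.4%. CDH1, the epithelial cadherin E-CAD (chr16:68737292-68835537, plus strand), stood at 186 and 209 CPM in DE(a)-LM, 47.4 and 46.4 in APS-LM, 46.3 and 67.4 in MPS-LM and 616 and 763 in PPS-LM. The DE(b) values were 116 and 83.4 CPM in DE(a)-DE(b), 33.3 and 22.5 in APS-DE(b), followed by 19.1 and 13.3 in MPS-DE(b) and 104.8 and 94.8 in PPS-DE(b). Within each day 1 treatment both LM libraries lay above both DE(b) libraries, but the groups overlapped across treatments, and the log2 fold change was 0.94 ± 0.26 for DE(a), 0.74 ± 0.26 for APS, 1.87 ± 0.27 for MPS and 2.80 ± 0.27 for PPS (interaction adjusted p = 0.000848). The APS comparison passed narrowly (adjusted p = 0.0405).

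CDH2, the neural cadherin N-CAD (chr18:27932879-28177946, minus strand), went the other way. It stood at 211 and 208 CPM in DE(a)-LM, 106 and 129 in APS-LM, 137 and 188 in MPS-LM and 235 and 204 in PPS-LM and at 816 and 802 CPM in DE(a)-DE(b), 808 and 873 in APS-DE(b), followed by 698 and 715 in MPS-DE(b) and 669 and 633 in PPS-DE(b). Every LM library lay below every DE(b) library, with log2 fold changes from -1.56 ± 0.15 after PPS to -2.84 ± 0.16 after APS (interaction adjusted p = 0.00119). CDH1 was thus called higher and CDH2 lower in LM after each of the 4 day 1 treatments.

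The EMT repressors SNAI2 and ZEB2, which are known to bind the CDH1 gene, were higher in LM in the same libraries. The related repressor ZEB1 and the epithelial genes CLDN6, CLDN7 and CRB3 were lower in LM over the mean but not called every time. For each of these the interaction was called. SNAI2 stood at 67.7 and 93.3 CPM in DE(a)-LM, 202 and 213 in APS-LM, 382 and 252 in MPS-LM and 284 and 196 in PPS-LM and at 0.985 and 0.116 CPM in DE(a)-DE(b), 0.441 and 1.33 in APS-DE(b), followed by 3.50 and 1.87 in MPS-DE(b) and 28.8 and 22.7 in PPS-DE(b) (mean log2 fold change 6.26 ± 0.29, adjusted p = 1.85e-14). ZEB2 ranged from 32.9 to 164 CPM in LM and 1.23 to 47.6 CPM in DE(b), with the smallest difference after PPS (1.65 ± 0.36, interaction adjusted p = 0.000249). SNAI1, the related Snail repressor, was not called (-0.24 ± 0.12, adjusted p = 0.118), at 14.9 to 32.5 CPM in LM and 14.7 to 49.9 CPM in DE(b). VIM, the mesenchymal intermediate filament vimentin, stood at 1527 and 2515 CPM in DE(a)-LM, 3130.4 and 4179.6 in APS-LM, 2059 and 2138 in MPS-LM and 695 and 532 in PPS-LM and at 487 and 325 CPM in DE(a)-DE(b), 934 and 856 in APS-DE(b), followed by 1246 and 1088 in MPS-DE(b) and 933 and 866 in PPS-DE(b). It was higher in LM after DE(a), APS and MPS, and after PPS it was at -0.54 ± 0.31 (adjusted p = 0.253, interaction adjusted p = 0.000271).

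The 4 keratins of simple epithelia tested were all higher in LM over the mean, and KRT8 and KRT19 were so after every day 1 treatment, a count of 2 that became 1 without DE(a)-LM replicate 2, either DE(a)-DE(b) replicate, APS-LM replicate 2 or APS-DE(b) replicate 1, and 4 without the filter on low counts. KRT19 stood at 992 and 978 CPM in DE(a)-LM, 983 and 1183 in APS-LM, 1705 and 1289.6 in MPS-LM and 1806 and 1492 in PPS-LM and in DE(b) from 146 to 252 CPM, a mean log2 fold change of 2.65 ± 0.15 (adjusted p = 1.22e-12, interaction adjusted p = 0.197). KRT8 rose by 1.33 ± 0.15 and KRT18, its filament partner, by 1.24 ± 0.16. The 2 genes have many pseudogenes, so reads can be shared with these. They also overlap on opposite strands, and whether the quantification used the strand of the reads is not known here. After DE(a), APS and MPS, KRT8, KRT19 and CDH1 were higher in LM in the same libraries as VIM.

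**Figure D4:**
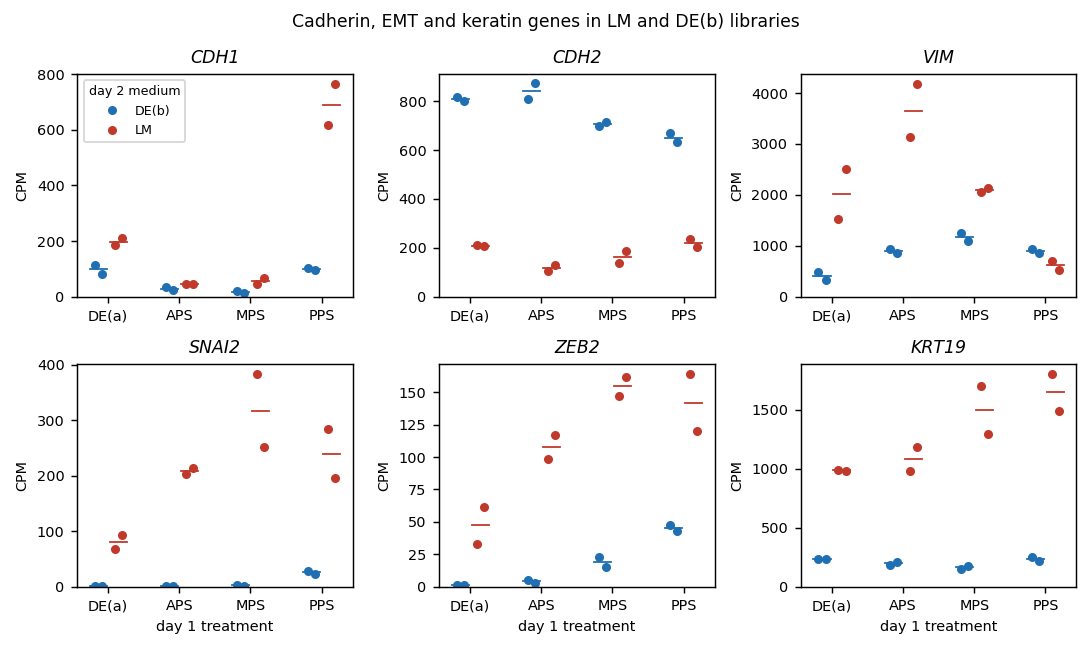
CPM (linear axis from 0) of CDH1, CDH2, VIM, SNAI2, ZEB2 and KRT19 in the single LM (red) and DE(b) (blue) libraries by day 1 treatment, with a line at the mean of the 2 replicates. CDH1 is highest in PPS-LM at 616 and 763 CPM, CDH2 is lower in every LM library, and VIM is lower in LM than in DE(b) only among the PPS libraries.

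HOX genes, which pattern the body axis, were higher in LM or not called over the mean of the comparisons. Of 37 tested, 14 were higher and 0 lower over the mean and 3 were higher after every day 1 treatment (HOXA13, HOXB6 and HOXC13), while 23 were higher after MPS, against 11 for DE(a), 12 for APS and 14 for PPS, where 1 was lower. Among all genes tested, 20.5% were higher over the mean and 2.83% every time. By day 1 treatment, 9.88% were higher after MPS, 8.48% after DE(a), 12.8% after APS and 9.94% after PPS. Without the filter on low counts the 3 became 5. The list median was 2.45, and 1.33 with the genes near 0 held at their bounds, since 35 of the 37 held at least 1 condition at or under 3 counts. HOXB6 stood at 5.86 and 20.1 CPM in DE(a)-LM, 64.7 and 113 in APS-LM, 126 and 161 in MPS-LM and 161 and 177 in PPS-LM and at 0 and 0 CPM in DE(a)-DE(b), 0 and 0 in APS-DE(b), followed by 13.5 and 16.7 in MPS-DE(b) and 81.8 and 68.4 in PPS-DE(b). The gap narrowed from at least 568-fold after APS to 2.27-fold after PPS, where HOXB6 had already reached a mean of 197 CPM at 24 h (interaction adjusted p = 1.61e-06). HOXA13, a posterior and allantois-associated member, stood at 1.15 and 1.96 CPM in DE(a)-LM, 2.37 and 2.04 in APS-LM, 20.8 and 50.9 in MPS-LM and 136 and 103 in PPS-LM and reached at most 2.26 CPM in DE(b).

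Genes of the extracellular matrix differed in either direction. Of 17 tested, 12 were higher and 3 lower over the mean, 3 were higher (COL3A1, LAMC1 and LUM) and 1 lower (COL5A2) after every day 1 treatment, and the interaction was called for 15. Among all genes tested, 20.5% were higher and 20.8% lower over the mean, and the interaction was called for 12.4%. The 3 lower are thus near the share over all genes. LUM, the proteoglycan lumican, stood at 7.004 and 26.3 CPM in DE(a)-LM, 146 and 239 in APS-LM, 341 and 190.3 in MPS-LM and 32.2 and 22.7 in PPS-LM and at 0 and 0 CPM in DE(a)-DE(b), 0 and 0.148 in APS-DE(b), followed by 17.4 and 7.42 in MPS-DE(b) and 1.83 and 2.43 in PPS-DE(b) (interaction adjusted p = 0.00127). COL3A1, a fibrillar collagen, ranged from 1.47 to 76.2 CPM in LM and 0 to 18.6 CPM in DE(b), and the groups overlapped. COL5A2, another fibrillar collagen, ranged from 98.8 to 306 CPM in LM and stood at 530.1 and 600.0 CPM in DE(a)-DE(b), 821 and 792 in APS-DE(b), followed by 2209.8 and 2229.6 in MPS-DE(b) and 1622 and 1564 in PPS-DE(b), a mean log2 fold change of -2.80 ± 0.15 (adjusted p = 3.56e-13). COL3A1 and COL5A2, neighbours on chromosome 2, thus differed in opposite directions.

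Of 21 growth factors and receptors tested, 11 were higher and 8 lower in LM over the mean, 4 were higher (FGF10, CHRD, NOG and KITLG) and 4 lower (FGF8, FGF17, BMP2 and BMP7) after every day 1 treatment. Among all genes tested, 20.5% were higher and 20.8% lower over the mean. FGF17 stood at 1034 and 1189.6 CPM in DE(a)-DE(b), 1074 and 1145 in APS-DE(b), followed by 228 and 298 in MPS-DE(b) and 10.6 and 52.3 in PPS-DE(b) and at 8.51 and 5.12 CPM in DE(a)-LM, 2.76 and 5.21 in APS-LM, 0.931 and 0.618 in MPS-LM and 0.578 and 0.547 in PPS-LM (mean log2 fold change -7.42 ± 0.42, adjusted p = 8.39e-13). FGF8, of the same subfamily, ranged from 9.93 to 21.9 CPM in DE(b) and was at or under 3 counts in LM, at least 116-fold lower after DE(a) and 74.9-fold after PPS. FGF10, the lateral plate and limb mesenchyme ligand, stood at 57.8 and 102 CPM in DE(a)-LM, 131 and 122 in APS-LM, 94.9 and 63.4 in MPS-LM and 34.4 and 21.7 in PPS-LM and in DE(b) from 0.221 to 3.37 CPM (mean log2 fold change 5.82 ± 0.24, interaction adjusted p = 0.000166). The BMP ligands themselves split: BMP2 was at -2.51 ± 0.14 and BMP7 at -2.20 ± 0.18, and BMP4 at 3.02 ± 0.37 after DE(a) and -0.72 ± 0.33 after PPS (adjusted p = 0.141, interaction adjusted p = 1.95e-05). The BMP antagonists CHRD and NOG were higher in LM, at 2.03 ± 0.20 and, with DE(a)-DE(b) held at its bound, 5.48.

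Ranked by the fitted log2 fold change, the 6 largest rises among genes called every time, at 10 CPM or more in a condition and without overlap, were TBX2, RGS13, HAND2, FOXF1, HAND1 and ODAM, and the 6 largest falls were CER1, DKK4, LEFTY1, LEFTY2, AC069528.1 and CD48. These were chosen by their values and are given as a description, and the order rests on fitted values over conditions at or near 0. With those held at 3 counts, ODAM rose by 5.76 on the log2 scale, less than GATA5 at 8.08 and GATA2 at 7.80, which also passed HAND2 at 7.60 and FOXF1 at 7.34. In the same way AC069528.1 stood at -5.85 and CD48 at -7.28, smaller falls than those of EOMES at -9.24, NODAL at -9.19 and MIXL1 at -8.56. RGS13, a regulator of G protein signalling, stood at 28.1 and 67.8 CPM in DE(a)-LM, 177 and 203 in APS-LM, 279 and 128 in MPS-LM and 17.3 and 11.1 in PPS-LM and reached at most 0.422 CPM in DE(b). ODAM, a secreted protein known from enamel epithelium, stood at 0.446 and 1.25 CPM in DE(a)-LM, 9.27 and 10.7 in APS-LM, 37.1 and 27.0 in MPS-LM and 27.9 and 21.5 in PPS-LM and reached at most 0.12 CPM in DE(b). RGS13 was at 0 in every library at 24 h and in every library in PM medium, and so was ODAM. AC069528.1, annotated as a transcribed processed pseudogene and therefore uncertain, was at 0 in all LM libraries and ranged from 3.28 to 18.7 CPM in DE(b). CD48, an immune cell surface protein, ranged from 4.02 to 77.9 CPM in DE(b) and reached at most 0.109 CPM in LM.

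A smaller set of genes did not share a direction. After different day 1 treatments, 318 genes (1.84% of those tested) were called in opposite directions, a count that became 211 without PPS-DE(b) replicate 1. Among 13 paraxial and nascent mesoderm genes tested, 5 were called in opposite directions, 0 changed the same way every time, 6 were higher in LM after DE(a) and 10 were lower in LM after PPS. TBX6, the T-box factor of presomitic mesoderm, stood at 2.27 and 1.92 CPM in DE(a)-DE(b), 4.69 and 5.18 in APS-DE(b), followed by 9.81 and 8.66 in MPS-DE(b) and 49.3 and 52.8 in PPS-DE(b). Its LM levels were 5.27 and 4.23 CPM in DE(a)-LM, 4.55 and 3.61 in APS-LM, 3.57 and 1.66 in MPS-LM and 2.95 and 2.90 in PPS-LM. It rose in LM after DE(a) (1.12 ± 0.30, adjusted p = 0.0091), was not called after APS, and fell after MPS (-1.80 ± 0.28) and PPS (-4.12 ± 0.28, interaction adjusted p = 3e-08). DLL3, a Notch ligand of the same tissue, stood at 4.66 and 7.79 CPM in DE(a)-DE(b), 32.2 and 37.2 in APS-DE(b), followed by 103 and 157 in MPS-DE(b) and 341 and 382 in PPS-DE(b) and at 16.2 and 10.9 CPM in DE(a)-LM, 8.15 and 8.62 in APS-LM, 6.12 and 5.46 in MPS-LM and 6.21 and 3.55 in PPS-LM (interaction adjusted p = 2.16e-08). For both genes the DE(b) level rose from DE(a) to PPS. The mean levels in PM medium were 157 to 189 CPM of TBX6 and 639 to 878 CPM of DLL3.

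COCH, which encodes the secreted protein cochlin, had the smallest interaction p among the genes called in opposite directions. DE(b) libraries held 28.5 and 24.9 CPM in DE(a)-DE(b), 84.0 and 120.2 in APS-DE(b), followed by 447 and 519 in MPS-DE(b) and 226 and 390.3 in PPS-DE(b). The LM values were 182 and 154 CPM in DE(a)-LM, 57.8 and 42.5 in APS-LM, 6.34 and 9.77 in MPS-LM and 2.74 and 2.46 in PPS-LM. From DE(a) to PPS its level fell in LM, and the log2 fold change went from 2.60 ± 0.26 after DE(a) to -6.88 ± 0.33 after PPS (interaction adjusted p = 1.01e-12). HS3ST3A1, a heparan sulfate sulfotransferase, went from 2.90 ± 0.19 after DE(a) to -1.96 ± 0.18 after PPS, with 7.10 and 9.34 CPM in DE(a)-DE(b), 23.7 and 25.6 in APS-DE(b), followed by 102 and 109 in MPS-DE(b) and 152 and 141 in PPS-DE(b). LAYN, the hyaluronan receptor layilin, went from 2.82 ± 0.33 after DE(a) to -3.05 ± 0.30 after PPS. FBN2, the microfibril protein fibrillin 2, was higher in LM after DE(a) (2.22 ± 0.16) and lower after PPS (-0.51 ± 0.15, adjusted p = 0.0205).

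GADD45G, a stress and differentiation gene, had the opposite order. It stood at 3.70 and 2.31 CPM in DE(a)-LM, 3.21 and 3.22 in APS-LM, 6.40 and 6.23 in MPS-LM and 61.7 and 43.1 in PPS-LM and at 10.03 and 12.96 CPM in DE(a)-DE(b), 11.4 and 9.87 in APS-DE(b), followed by 8.30 and 11.9 in MPS-DE(b) and 2.36 and 2.43 in PPS-DE(b). Its high values were those of PPS-LM, where the log2 fold change was 4.46 ± 0.32, against -2.01 ± 0.30 after DE(a) (interaction adjusted p = 2.04e-09). CDX2, a caudal homeobox gene, passed the test after MPS (5.43 ± 0.56) and PPS (2.47 ± 0.42), and stood in DE(a)-LM at 0.318 and 0.477 CPM and in APS-LM at 0.722 and 2.15 CPM (interaction adjusted p = 0.0215). Its 24 h means were 2.45 CPM after DE(a) and 386 CPM after PPS.

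**Figure D5:**
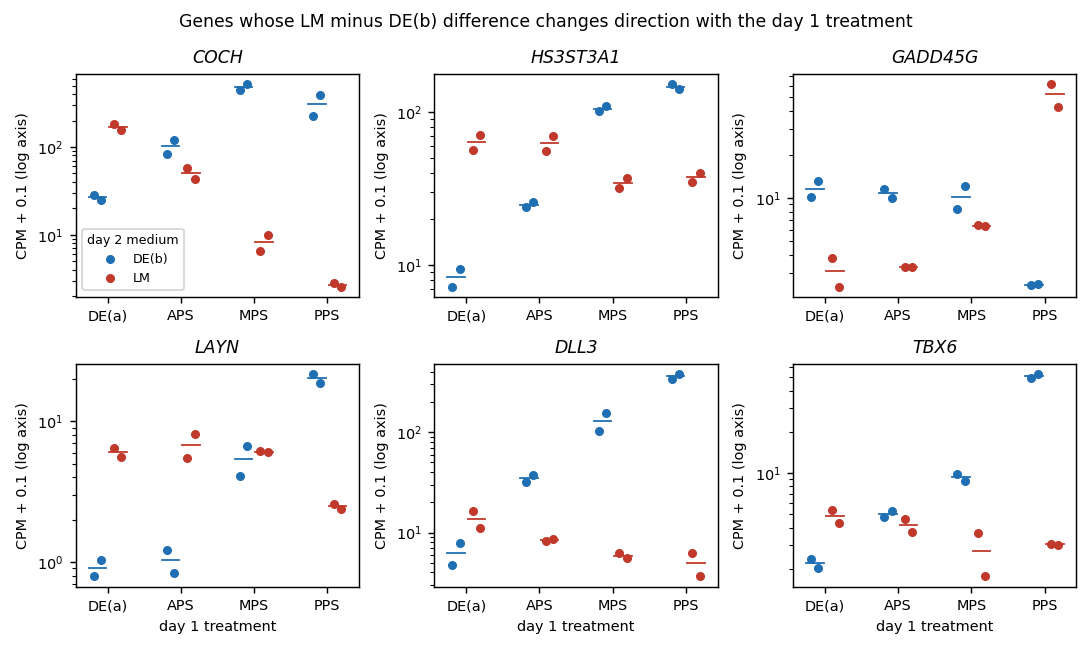
CPM + 0.1 (log axis) of 6 genes called in opposite directions after different day 1 treatments, in the single LM (red) and DE(b) (blue) libraries, with a line at the mean of the 2 replicates. The LM and DE(b) points change sides between DE(a) and PPS for each gene, for COCH from 2.60 ± 0.26 to -6.88 ± 0.33 on the log2 scale.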

How the data were processed

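Poly(A)-selected, stranded RNA sequencing libraries of ESI017 cells covered 17 conditions in 2 replicates each. The authors quantified reads with Salmon 1.10.2 against GRCh38 and deposited estimated counts, summed to genes in R 4.4.2, with 1 table per replicate and no normalization. From these deposited estimated counts, rounded to whole numbers, 36189 genes were formed by adding up the 1762 identifiers that share a gene symbol with another (alternate contigs, 1.26% of counts), a choice made after the files were seen. Totals ranged from 15522780 to 23439799 counts, and log2(CPM + 1) of replicates correlated at 0.984 to 0.993.

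The edgeR 4.0.16 (R 4.3.3) quasi-likelihood test used TMM scaling, the filterByExpr filter (17268 genes kept), 1 mean per condition over all 34 libraries and 17 residual degrees of freedom. LM was compared with DE(b) after each of the 4 day 1 treatments and over their mean, and the interaction was an F test of the 3 differences between them. Benjamini-Hochberg adjustment ran over all genes tested, and calls were made at 0.05, two-sided. A gene changed in the same direction where all 4 comparisons called it with 1 sign. The 57 named genes were 17 markers of the study, up to 3 members of each list, the 6 largest rises and the 6 largest falls, and the 6 genes called in opposite directions with the smallest interaction p. Members of lists described beyond these, and all gene lists, were chosen with earlier results of these data known. The replicates are described as biological, and p-values measure the spread between these samples. On simulated counts with dispersion 0.0418, the mean of the 4 comparisons called 98.7% of genes changed by 1 on the log2 scale and 100% of those changed by 2, the rule of all 4 called 1.32% and 91.9%, and 0 unchanged genes passed that rule. The simulation gave every gene the same dispersion and drew the libraries independently, so these shares need not hold for the real libraries. Coordinates come from GENCODE on GRCh38. Alternatives were another scaling, no low-count filter, DESeq2 1.42.0, fewer libraries, a replicate block, unmerged identifiers and leaving out each replicate. Some members of the lists are not reported here by name.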

Additional observations from a re-analysis of the deposited data

Results flagged for a closer look

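For the genes below the LM minus DE(b) difference depended on the day 1 treatment, by the interaction test of edgeR adjusted over all genes, and no cause of this was tested. With 2 libraries in each condition, single libraries were not examined for standing apart from their group.

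Among the factors and BMP targets whose difference was smallest after MPS or PPS, the adjusted p was 2.14e-06 for HAND1, 3.72e-06 for MSX2, 1.94e-08 for GATA2, 2.08e-06 for LEF1, 0.000271 for GATA3, 0.000173 for SNAI2, 0.000249 for ZEB2 and 1.61e-06 for HOXB6. In the matrix and growth factor lists it was 0.00127 for LUM, 0.0018 for COL3A1, 0.00689 for COL5A2 and 0.000166 for FGF10. For the BMP target SMAD9 it was 0.0305, and for the mesoderm and amnion genes CDX2 and TFAP2A it was 0.0215 and 0.00455. For the endothelial genes KDR and TEK it was 0.0128 and 0.000866.

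Among the endoderm and nodal genes, the adjusted p was 0.0018 for SOX17, 0.0203 for FOXA2, 0.000378 for EOMES, 0.0306 for CER1, 0.000292 for LHX1 and 0.0419 for TDGF1. Among the cadherin and mesenchymal genes it was 0.000848 for CDH1, 0.00119 for CDH2 and 0.000271 for VIM.

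The genes called in opposite directions had adjusted p values of 3e-08 for TBX6, 1.01e-12 for COCH, 1.56e-11 for HS3ST3A1, 2.04e-09 for GADD45G, 6.93e-09 for LAYN, 1.87e-08 for FBN2 and 2.16e-08 for DLL3. The last 6 were chosen by this p.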

How the results depend on the processing

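Of 1311 values of the 57 named genes under the alternatives, 1299 kept their direction and their side of the threshold. The 12 exceptions all concerned genes called in opposite directions. GADD45G, at 0.02 over the mean, went to -0.39 with day 1 and medium as additive terms over 16 libraries, to -0.056 without DE(a)-LM replicate 1, -0.024 without DE(a)-DE(b) replicate 1, -0.037 without MPS-DE(b) replicate 1 and -0.038 without PPS-LM replicate 1, with a highest value of 0.096 without DE(a)-LM replicate 2. In the additive fit the mean difference of TBX6 (-1.24), COCH (-3.01), LAYN (0.80) and FBN2 (0.70) was not called, and that of HS3ST3A1 became called without DE(a)-LM replicate 1, DE(a)-DE(b) replicate 2 or APS-LM replicate 1 (adjusted p = 0.0417, 0.0439 and 0.0464, edgeR). The cause was not tested.

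Without the filter on low counts the interaction was called for 3221 genes and opposite directions for 492, and the Wnt, keratin and HOX counts given in the report moved too. With a fold change of at least 2 required, the mean comparison called 1400 genes higher and 1440 lower, APS 2774 and PPS 2280. With the mean called and 4 equal signs in place of 4 calls, 2702 genes were higher and 2752 lower. With each replicate left out in turn, the calls were 3209 to 3467 higher and 3276 to 3522 lower over the mean, 1851 to 2933 after DE(a), 2999 to 4612 after APS, 2484 to 3741 after MPS, 2251 to 3546 after PPS, 355 to 492 higher and 446 to 555 lower every time, 1608 to 2237 for the interaction and 211 to 316 in opposite directions. DESeq2 called 526 genes higher and 629 lower every time, of which 478 and 571 were among the 488 and 575, and unmerged identifiers gave 466 and 555.

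Deviations of same-numbered libraries correlated at 0.0072 to 0.411, over 0.1 in 24 of 28 pairs of conditions. As 4 pairs fell short of 0.1 and no label ties the numbers to a shared batch, the numbers were not used as pairs, although all 28 correlations were above 0. With the replicate block, 572 genes were higher and 687 lower every time, 3919 and 3933 over the mean, and the interaction was called for 2863.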

Other observations

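Other genes that changed in the same direction after every day 1 treatment encode secreted factors, contractile proteins and signalling components. They were chosen after their values were seen and are a description. HGF, the ligand of the MET receptor, had a lowest, median and highest level of 8.02, 87.1 and 1032 CPM in LM and 0.0551, 0.295 and 0.788 CPM in DE(b). IGF2, a growth factor of mesoderm and placenta, had 139.0, 403.5 and 1231 CPM in LM and 3.25, 6.62 and 14.2 CPM in DE(b). The 8 LM libraries lay above the 8 DE(b) libraries for both. ACTC1, the cardiac actin, had 224.7, 2026 and 3676 CPM in LM and 7.40, 23.1 and 469.5 CPM in DE(b), and FGF19 had 5.74, 59.3 and 339.1 CPM in LM and 0.387, 2.38 and 6.51 CPM in DE(b), with overlap for both. PTCH1, the hedgehog receptor and a target of its own pathway, had 156.0, 284.8 and 436.1 CPM in LM and 29.5, 48.8 and 112.1 CPM in DE(b). The hypoxia-related factor EPAS1 rose by 6.63 and the hindlimb factor PITX1 by 5.09 on the log2 scale.

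Among the genes lower in LM, CYP26A1, which degrades retinoic acid, had 0.206, 8.08 and 26.5 CPM in LM and 255.5, 742.2 and 1093 CPM in DE(b). The log2 fold change was -6.14 for ZIC2, a zinc finger gene, and -7.12 for NTN1, the guidance cue netrin 1. It was -5.56 for ERBB4, a neuregulin receptor, -5.30 for ANGPT2, an antagonist of TEK, -5.13 for FZD5, a Wnt receptor, and -5.33 for DUSP4, a MAP kinase phosphatase.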
